A study of Homo sapiens with 29 samples.

Results

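The genes described here are 10 genes of iron handling, taken by name from 19785 protein-coding genes: HAMP, HJV, HFE, TFR2, TFRC, SLC11A2, FTH1, FTL, SLC40A1 and IREB2. Their starts and gene bodies were searched for peaks of the INO80 chromatin remodelling complex in HepG2 and Huh7, established human liver cancer cell lines. Chromatin immunoprecipitation with sequencing (ChIP-seq) mapped INO80, the motor subunit of the complex, its partner subunit MCRS1, the ATPase RUVBL2 and the DNA-binding factor YY1 in both lines, and the ATPase RUVBL1 in HepG2. INO80 in HepG2 came from 3 libraries and the other factors from 2 each, except YY1 in HepG2, which was made from public ENCODE reads. No treatment enters any value below; 8 further libraries from HepG2 cells given EPZ-6438 or its solvent DMSO were not used.

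The 9 peak lists hold positions only, on hg19, with 3322 to 39293 peaks each and median widths of 254 to 666 bp. There is 1 list per factor and line, so no value has a replicate error and no test was possible. Depth is not known for any list, peak width is its extent and not its height, and an absent peak means that none was listed, not that the factor was absent. The lists are longer in HepG2 (23665 INO80, 23425 MCRS1, 12936 RUVBL2 and 39293 YY1 peaks) than in Huh7 (15303, 6020, 3322 and 21554). Of 7 liver genes used as markers, an INO80 peak lay at 6 in HepG2 (ALB, APOA1, APOB, TTR, SERPINA1 and AFP) and at APOB alone in Huh7. Of 5 macrophage markers 2 held one in each line, CD68 and LYZ. Of 5 enterocyte markers 1 held one in HepG2, VIL1, and 0 in Huh7. Over all coding genes an INO80 peak lay at 63.7% in HepG2 and 47.7% in Huh7. At the liver markers in Huh7, MCRS1 and RUVBL2 also lay at APOB alone, and YY1 at APOA1, APOB and SERPINA1. A peak does not measure RNA, so these counts do not type the cells.

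The liver senses body iron and answers with hepcidin, the peptide hormone encoded by HAMP, which binds the iron exporter ferroportin (SLC40A1) and causes its degradation. Hepcidin transcription is driven by bone morphogenetic protein (BMP) ligands through SMAD factors, with hemojuvelin (HJV) as co-receptor and with HFE and transferrin receptor 2 (TFR2) as sensors of transferrin-bound iron. Inside cells, the iron regulatory protein encoded by IREB2 binds the messenger RNAs of ferritin (FTH1 and FTL), of transferrin receptor 1 (TFRC) and of some other iron genes, so that much of their control acts after transcription, which peak lists do not show.

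The sequences below are the reference genome under the peaks that the results turn on, read from GRCh37, the sequence of hg19, 5′ to 3′ on the strand of the gene. They show what the peaks of HAMP, the gene with fewest lists, and of HJV, whose peaks lie far from its usual start, have beneath them. Capitals mark letters searched for on both strands: GGCGCC (the core of BMP response elements), CACGTG (bound by USF factors), TGACNNNGC (antioxidant response) and GTTCGANTC (from the B box inside transfer RNA, or tRNA, genes), the last added after the HJV sequence had been read. The HAMP distal YY1 peak is chr19:35770956-35771225 on the plus strand, the proximal INO80 peak is chr19:35772913-35773132 on the plus strand, and the HJV stretch under 8 lists is chr1:145397842-145397988 on the plus strand.
HAMP distal YY1 peak: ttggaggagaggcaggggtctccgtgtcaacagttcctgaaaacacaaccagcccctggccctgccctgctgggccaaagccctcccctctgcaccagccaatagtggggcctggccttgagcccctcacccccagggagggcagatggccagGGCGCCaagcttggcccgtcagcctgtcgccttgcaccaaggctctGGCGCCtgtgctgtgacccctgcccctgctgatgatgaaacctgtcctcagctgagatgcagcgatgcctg
HAMP proximal INO80 peak: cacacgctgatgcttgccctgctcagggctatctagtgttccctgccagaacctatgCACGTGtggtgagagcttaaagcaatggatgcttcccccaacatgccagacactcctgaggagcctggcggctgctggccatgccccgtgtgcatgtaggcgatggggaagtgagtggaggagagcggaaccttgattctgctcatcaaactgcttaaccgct
HJV stretch under 8 lists: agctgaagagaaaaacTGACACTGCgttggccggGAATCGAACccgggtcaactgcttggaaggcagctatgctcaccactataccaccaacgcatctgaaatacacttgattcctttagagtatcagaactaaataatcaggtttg

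3 further stretches lie just before the starts of genes that were held in both lines, as HJV also was, and are shown for contrast. None of the letters searched occurs in them. FTH1 is chr11:61735529-61735683 on the minus strand and lies under a peak of all 9 lists. It overlaps annotated exons along its whole length, none of them annotated as UTR. IREB2 is chr15:78730218-78730517 on the plus strand and SLC40A1 is chr2:190445513-190445812 on the minus strand, each under peaks of 6 lists.
FTH1 upstream stretch: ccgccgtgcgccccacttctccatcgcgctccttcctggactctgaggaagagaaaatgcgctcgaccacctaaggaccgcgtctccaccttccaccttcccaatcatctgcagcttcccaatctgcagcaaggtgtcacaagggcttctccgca
IREB2 upstream stretch: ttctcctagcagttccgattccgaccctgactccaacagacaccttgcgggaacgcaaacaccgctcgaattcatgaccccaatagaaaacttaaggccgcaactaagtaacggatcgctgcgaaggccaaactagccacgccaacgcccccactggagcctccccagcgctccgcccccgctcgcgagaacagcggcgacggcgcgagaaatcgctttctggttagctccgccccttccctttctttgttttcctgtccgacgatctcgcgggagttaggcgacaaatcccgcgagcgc
SLC40A1 upstream stretch: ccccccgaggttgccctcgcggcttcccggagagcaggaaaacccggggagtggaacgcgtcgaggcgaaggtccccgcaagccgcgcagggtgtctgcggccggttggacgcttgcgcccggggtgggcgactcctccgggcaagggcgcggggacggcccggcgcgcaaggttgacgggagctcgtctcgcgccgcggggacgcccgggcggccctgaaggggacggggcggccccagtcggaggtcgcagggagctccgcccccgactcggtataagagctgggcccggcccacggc

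The IREB2 stretch holds 32 CpG pairs in 300 bases and the SLC40A1 stretch 43, where the HAMP distal peak holds 6 in 270 and the proximal peak 7 in 220. A similar range appeared over the 250 bases before each canonical start, the start of the 1 transcript that the annotation takes as representative. The ratio of observed to expected CpG was 1.23 at IREB2, 1.04 at SLC40A1, 0.9 at FTH1, 0.85 at TFRC, 0.67 at FTL and 0.65 at SLC11A2. It was 0.42 at HAMP, 0.37 at HFE, 0.25 at TFR2 and 0.2 at HJV, with a median of 0.75 over all coding genes. The 4 lowest ratios belong to the hormone gene and its 3 regulators.

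A factor was counted as holding a gene where one of its peaks came to 1 kb or less from any coding start of that gene in the GENCODE basic set. In HepG2, INO80 held all 10 iron handling genes, where it held 63.7% of all coding genes. YY1 also held 10 (62.6% of all coding genes) and so did RUVBL2 (39.1%). MCRS1 held 9, all except HAMP (58.1%), and RUVBL1 held FTH1, FTL and HJV, 3 of 10 (16.8%). In Huh7, YY1 held 8 (51.5%), INO80 7 (47.7%), MCRS1 4 (21.8%) and RUVBL2 4 (12.7%). Each count is above the share of all genes, but a set of 10 genes gives a coarse share, and none of these differences has a test.

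**Figure D1:**
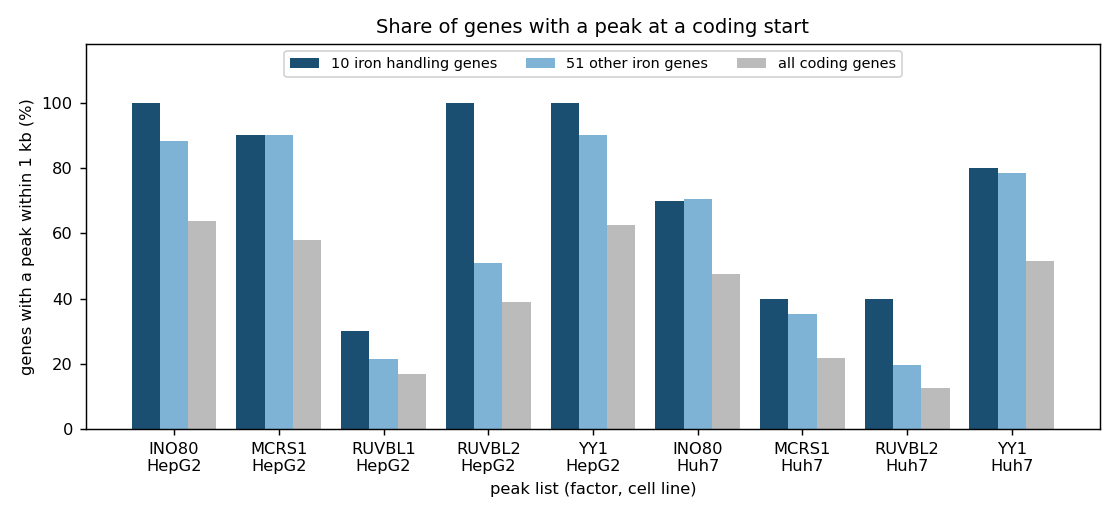
Share of genes with a peak within 1 kb of a coding start (vertical axis, percent) in each of the 9 peak lists (horizontal axis), for the 10 iron handling genes, 51 other iron genes and all 19785 coding genes. The iron handling genes all hold a peak in the HepG2 lists of INO80, RUVBL2 and YY1, and their lowest count is that of RUVBL1, at 3 of 10 genes.

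The genes differed more among themselves than these counts show. FTH1, FTL and HJV held a peak in all 9 lists, as did 5.26% of coding genes. IREB2 held one in 7, TFRC, SLC40A1, HFE and SLC11A2 in 6, TFR2 in 4 and HAMP in 3. The median was 6 lists for the 10 genes, 6 for the 51 other iron genes and 4 for all coding genes. None of the 10 was without a peak in every list, where 27.8% of coding genes were.

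**Figure D2:**
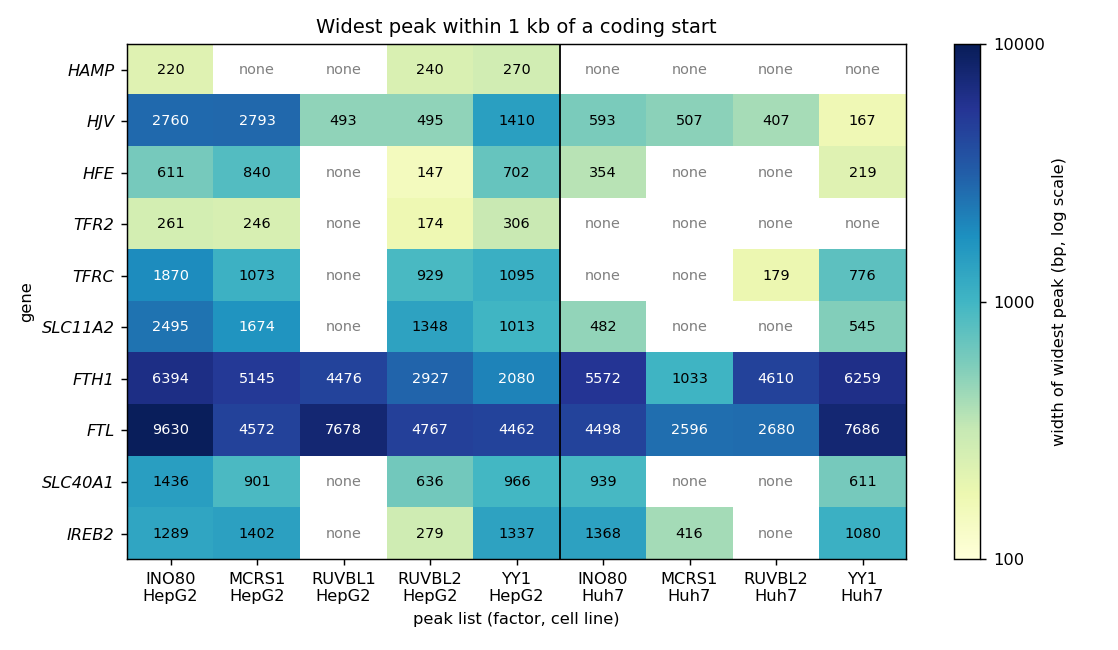
Width of the widest peak within 1 kb of a coding start (colour, bp on a log scale, printed in each cell) for each gene (rows) in each list (columns), with HepG2 left of the line and Huh7 right of it. FTH1 and FTL have the widest peaks in most lists, from 1033 to 9630 bp, and HAMP and TFR2 have no cell filled in Huh7.

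**Figure D3:**
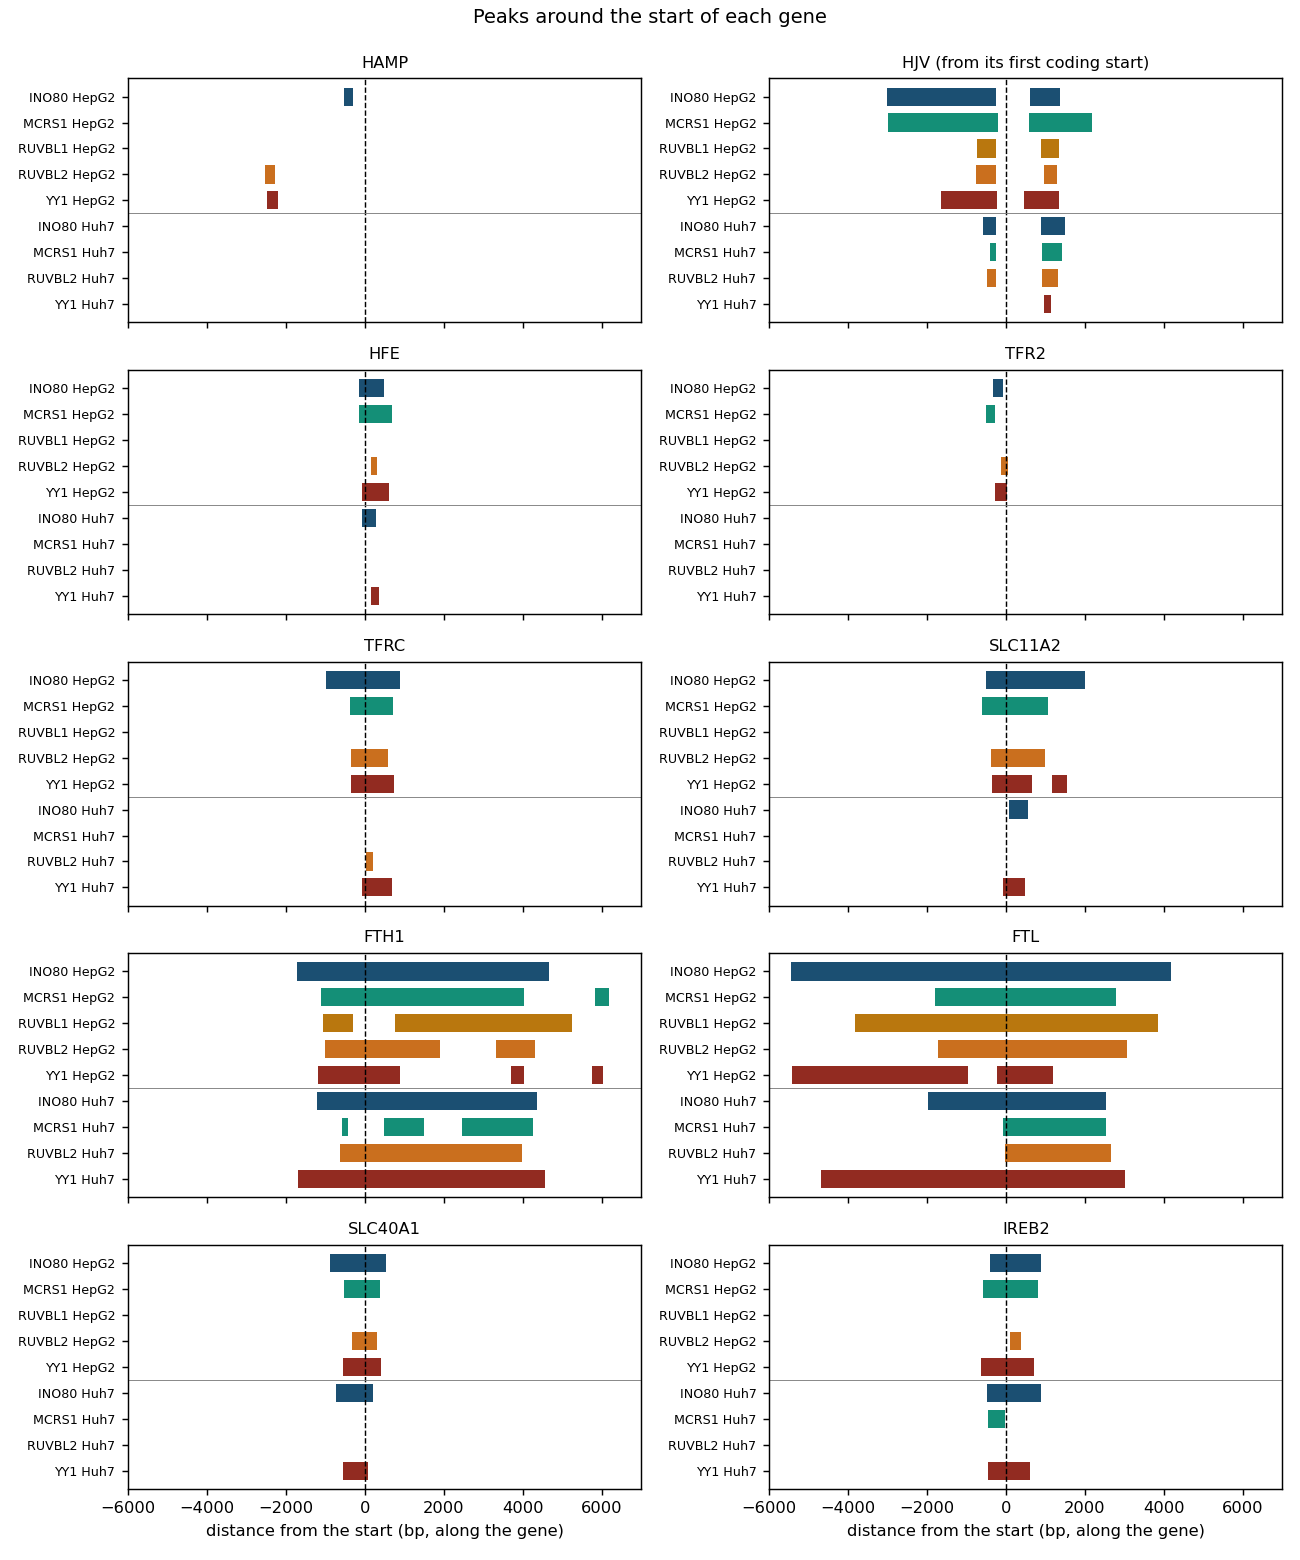
Peaks of each list (rows, bars to scale) around the canonical start of each gene, or the first coding start for HJV, with distance along the gene in bp on the horizontal axis and the start as a dashed line. The HAMP peaks fall at separate places before the start, those of HJV flank its first coding start without covering it, and most of those of FTH1 and FTL run over the gene.

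HAMP, the hepcidin gene (ENSG00000105697.9_7, chr19:35771619-35776046, plus strand), held small peaks in HepG2 and none in Huh7. INO80 had a peak of 220 bp, RUVBL2 one of 240 bp and YY1 one of 270 bp, and neither MCRS1 nor RUVBL1 had one. These are narrow for their lists: of the genes holding the factor, 4.48% had a narrower widest peak for INO80, 19.2% for RUVBL2 and 7.71% for YY1. The combination of INO80, RUVBL2 and YY1 in HepG2 with nothing else was found at 5 coding genes in all, HAMP included.

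The 3 HAMP peaks did not lie at 1 site. Counted from the canonical start, with negative positions before it, the INO80 peak ran from -518 to -299, the YY1 peak from -2475 to -2206 and the RUVBL2 peak from -2521 to -2282. YY1 and RUVBL2 shared 194 bp, and neither shared a base with INO80. The distal pair counts through a second HAMP start, at 35771619, from which the YY1 peak is 394 bp and the RUVBL2 peak 470 bp away. With canonical starts only, HAMP kept INO80 and lost YY1 and RUVBL2.

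The letters under the HAMP peaks also differ. The distal YY1 peak holds GGCGCC at -2322 and at -2276, and the proximal INO80 peak holds 1 CACGTG, at -461. HAMP is known to carry BMP response elements with GGCGCC both near its start and farther upstream. Within 300 bases about the peak centre, GGCGCC occurs in 24.3% of all HepG2 YY1 peaks and CACGTG in 6.26% of all HepG2 INO80 peaks, so the first match is common and the second less so. The 250 bases before the HAMP start, which no peak reached, hold GGCGCC (22.2% of all coding promoters) and TTCNNNGAA, bound by STAT factors (5.61%). A match is only the presence of these letters.

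HJV encodes hemojuvelin, the BMP co-receptor of the hepcidin pathway (ENSG00000168509.20_9, chr1:145398250-145417545, plus strand). It was counted in all 9 lists, yet no list had a peak within 1 kb of its canonical start at 145413278. Its coding starts spread over 15029 bp, and every count came from peaks near the first of them, on both sides of it in 8 lists. The widest peaks there in HepG2 measured 2760 bp for INO80, 2793 for MCRS1, 493 for RUVBL1, 495 for RUVBL2 and 1410 for YY1. In Huh7 they measured 593 bp for INO80, 507 for MCRS1, 407 for RUVBL2 and 167 for YY1. These widest peaks lie before the first start in HepG2 and after it in Huh7, so they are not the same site. After that start, the HepG2 peaks measured 765 bp for INO80, 1593 for MCRS1, 329 for RUVBL2 and 895 for YY1. Before it, the Huh7 peaks measured 334 bp for INO80, 150 for MCRS1 and 213 for RUVBL2, with none for YY1. Side by side, the Huh7 peaks of INO80, MCRS1 and YY1 were the shorter, while the RUVBL2 peak after the start was longer in Huh7. The nearest peak to the canonical start was a YY1 peak of 244 bp in HepG2, from 1031 to 1274 inside the gene.

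Before the first start, the HJV peaks of 8 lists, all but YY1 in Huh7, met on 147 bp, which are printed above. This stretch holds GAATCGAAC, the B box letters GTTCGANTC read on the other strand. These letters occur in 0.217% of the 250-base promoters of all coding genes and, within 300 bases about the peak centre, in 0.254% (YY1 in HepG2) to 1.54% (RUVBL2 in Huh7) of all peaks of a list. RefSeq, on GRCh38.p14, lists the tRNA genes TRE-CTC1-1, TRG-TCC2-1, TRH-GTG1-1 and TRK-CTT2-1 beside HJV. Coordinates of that build were not used, so whether a peak covers one of them was not tested. Whether these peaks belong to HJV or to such a neighbour was not tested, so the HJV counts are not tied to HJV alone.

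HFE, the sensor gene mutated in the common form of hereditary hemochromatosis (ENSG00000010704.19_13, chr6:26087509-26098571, plus strand), held 4 factors in HepG2 and 2 in Huh7. Its HepG2 peaks measured 611 bp for INO80, 840 for MCRS1, 147 for RUVBL2 and 702 for YY1, and its Huh7 peaks 354 bp for INO80 and 219 for YY1. The RUVBL2 peak has the narrowest width any list holds, 147 bp, which 572 peaks of that list share. All 6 lists met on 124 bp from 157 to 280 after the canonical start. The peaks also lie inside the long annotation of the histone gene H2BC4, which runs the other way (chr6:26086545-26124154), so they are not tied to HFE alone.

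TFR2, the transferrin receptor that liver cells use as an iron sensor (ENSG00000106327.13_9, chr7:100218039-100240402, minus strand), was held in HepG2 only and by narrow peaks. INO80 had 261 bp, MCRS1 246, RUVBL2 174 and YY1 306, and of the genes holding each factor, 6.45%, 4.77%, 7.74% and 9.39%, in that order, had a narrower widest peak. The peaks were side by side more than on top of each other. INO80 ran from -339 to -79, MCRS1 from -513 to -268, RUVBL2 from -120 to 53 and YY1 from -279 to 26. Of the partner peaks, 65.7% of the YY1 length, 29.3% of the MCRS1 length and 24.1% of the RUVBL2 length lay inside the INO80 peak. No base was under all 4.

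TFRC encodes transferrin receptor 1, by which most cells take up iron (ENSG00000072274.14_14, chr3:195739382-195809024, minus strand). In HepG2 its start lay under INO80 (1870 bp), MCRS1 (1073 bp), RUVBL2 (929 bp) and YY1 (1095 bp), and all of the partner peaks lay inside the INO80 peak. In Huh7 the start lay under a YY1 peak of 776 bp, with a RUVBL2 peak of 179 bp from 35 to 213 after it, and no INO80 or MCRS1 peak was listed. RUVBL2 and YY1 without INO80 in Huh7 set TFRC apart from the other 9 genes. Its pattern over the 9 lists was found at 68 coding genes.

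TFRC also held peaks deep inside the gene. In HepG2 an INO80 peak of 575 bp ran from 25399 to 25973 after the start and a YY1 peak of 371 bp from 25908 to 26278, both in an intron. In Huh7 a YY1 peak of 330 bp ran from 25974 to 26303. The YY1 peaks of the lines overlap here, and each also lies at the edge of the HepG2 INO80 peak. A further HepG2 YY1 peak of 264 bp ran from 55678 to 55941, with its centre past the canonical transcript, in an intron of another TFRC transcript.

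SLC11A2 encodes the divalent metal transporter DMT1, which moves iron out of endosomes and, in the gut, into enterocytes (ENSG00000110911.17_14, chr12:51373184-51422349, minus strand). Its widest HepG2 peaks measured 2495 bp for INO80, 1674 for MCRS1, 1348 for RUVBL2 and 1013 for YY1. In Huh7 INO80 had 482 bp and YY1 545 bp, with no MCRS1 or RUVBL2 peak. The ratio of INO80 peak length in HepG2 to that in Huh7, 5.18, was the highest of the 7 genes with INO80 in both lines. All 6 lists met on 398 bp from 72 to 469 after the canonical start.

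FTH1, the heavy ferritin subunit that oxidises iron for storage (ENSG00000167996.16_12, chr11:61727190-61735106, minus strand), held every list. In HepG2 the widest peaks near its start measured 6394 bp for INO80, 5145 for MCRS1, 4476 for RUVBL1, 2927 for RUVBL2 and 2080 for YY1. In Huh7 they measured 5572 bp for INO80, 1033 for MCRS1, 4610 for RUVBL2 and 6259 for YY1. The width of the Huh7 INO80 peak ranked 9 among 9436 genes with an INO80 peak, and that of the HepG2 peak 72 among 12605.

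The order of the lines at FTH1 was not the same for every factor. The summed length of peaks near its start was 1.15 times as long in HepG2 as in Huh7 for INO80 and 4.33 times for MCRS1. For RUVBL2 it was 0.635 times and for YY1 0.332 times, so these peaks were longer in Huh7 although both lists are shorter there. These sums take a peak whole and leave out peaks farther than 1 kb from every start, so they depend on where peaks were split. Among those left out were 1795 bp of MCRS1 in Huh7 and 990 bp of RUVBL2 in HepG2. Each of these 2 overlaps the wide near-start peak of the same factor in the other line. The peaks did not all cover the start: in HepG2 RUVBL1 left a gap from -291 to 761, and in Huh7 MCRS1 left one from -423 to 475. Away from its starts, the annotated span of FTH1 held further peaks. In HepG2 these were MCRS1 (348 bp), RUVBL2 (990 bp) and YY1 (281 and 329 bp), and in Huh7 MCRS1 (1795 bp). All of them lie wholly inside the neighbouring gene BEST1, with their centres past the canonical FTH1 transcript. They are thus not tied to FTH1 alone. Beside the printed upstream stretch, 136 bp from 761 to 896 inside the gene lay under all 9 lists. BEST1 is a chloride channel gene that runs toward FTH1 (chr11:61717535-61732987). It is also overlapped by the downstream ends of near-start peaks: INO80, MCRS1 and RUVBL1 in HepG2, and INO80, RUVBL2 and YY1 in Huh7.

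FTL, the light ferritin subunit (ENSG00000087086.15_7, chr19:49468566-49470136, plus strand), held the widest peak of the 10 genes in 6 of the 9 lists, with FTH1 in the other 3. In HepG2 its widest peaks measured 9630 bp for INO80, 4572 for MCRS1, 7678 for RUVBL1, 4767 for RUVBL2 and 4462 for YY1. This YY1 peak ended 958 bp before the start and reached into the neighbouring gene BAX. The HepG2 YY1 peak over the FTL start measured 1419 bp, less than the 2080 bp at FTH1. In Huh7 the widest FTL peaks measured 4498 bp for INO80, 2596 for MCRS1, 2680 for RUVBL2 and 7686 for YY1. By width FTL ranked 14 among 12605 genes for INO80 in HepG2 and 5 among 3326 for RUVBL1. All 9 lists met on 1216 bp from -22 to 1193.

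At the ferritin genes most of the peaks ran along the gene. FTL lay wholly under a peak in 8 lists and to 76.0% in the HepG2 YY1 list, but it is only 1571 bp long, so a wide peak at its start covers it. FTH1 is 7917 bp long over all its annotated transcripts, a span that runs past the end of its canonical transcript. This span was covered to 59.0% by INO80, 55.3% by MCRS1 and 56.5% by RUVBL1 in HepG2. In Huh7 it was covered to 55.2% by INO80, 50.2% by RUVBL2 and 57.6% by YY1. It was covered to 36.7% by RUVBL2 and 19.0% by YY1 in HepG2, and to 35.7% by MCRS1 in Huh7. Coverage of at least 50% was listed for 2.11% of all coding genes for INO80 in HepG2, 1.75% for MCRS1, 0.323% for RUVBL1, 0.925% for RUVBL2 and 0.839% for YY1. In Huh7 it was 0.975% for INO80, 0.359% for MCRS1, 0.505% for RUVBL2 and 1.53% for YY1. FTL passed that level in all 9 lists, FTH1 in 6, and none of the other 8 genes in any. Of the 51 other iron genes, 2 (3.92%) passed it in each of the 9 lists, so such coverage is not particular to the ferritin genes. The longest FTL peaks ran past the gene into its neighbours. The INO80 peak in HepG2 covered 1939 bp of BAX, a gene of cell death, and 1360 bp of GYS1, a glycogen synthase gene. Both ferritin genes have processed pseudogene copies elsewhere in the genome, so reads shared with those copies are placed with less certainty.

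SLC40A1, the gene of the iron exporter ferroportin (ENSG00000138449.11_8, chr2:190425316-190448484, minus strand), held 4 factors in HepG2 and 2 in Huh7. Its HepG2 peaks measured 1436 bp for INO80, 901 for MCRS1, 636 for RUVBL2 and 966 for YY1, and its Huh7 peaks 939 bp for INO80 and 611 for YY1. In both lines the partner peaks lay wholly inside the INO80 peak, and the 6 lists met on 386 bp from -316 to 69, over the start. The Huh7 INO80 peak lay wholly inside that of HepG2.

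IREB2, the gene of the iron regulatory protein (ENSG00000136381.13_7, chr15:78729773-78793795, plus strand), varied least between the lines for INO80 and YY1. INO80 measured 1289 bp in HepG2 and 1368 in Huh7, a ratio of 0.942, and YY1 1337 and 1080 bp, a ratio of 1.24. MCRS1 measured 1402 and 416 bp, and RUVBL2 279 bp in HepG2 with no peak in Huh7. IREB2 was the only one of the 10 genes with a longer INO80 peak in Huh7. INO80, MCRS1 and YY1 of both lines met on 369 bp before the start, from -405 to -37, and the printed sequence is from this stretch. The RUVBL2 peak lay on the other side of the start, from 109 to 387.

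Counts at canonical starts alone were 1 lower in every list through HJV, and 2 lower for RUVBL2 and YY1 in HepG2, where HAMP also dropped out. In HepG2 INO80 then held 9 of the 10 genes (61.9% of all coding genes), MCRS1 8 (56.5%), RUVBL1 2 (15.7%), RUVBL2 8 (37.6%) and YY1 8 (60.4%). In Huh7 INO80 held 6 (45.6%), MCRS1 3 (20.6%), RUVBL2 3 (11.9%) and YY1 7 (49.6%).

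Between the lines, the listed states went in 1 direction. INO80 held 7 of the 10 genes in both lines (45.3% of all coding genes), HAMP, TFRC and TFR2 in HepG2 only (18.4%) and 0 in Huh7 only (2.4%). YY1 held 8 in both (48.5%), HAMP and TFR2 in HepG2 only (14.0%) and 0 in Huh7 only (3.0%). MCRS1 held FTH1, FTL, HJV and IREB2 in both (21.2%), 5 in HepG2 only (37.0%) and 0 in Huh7 only (0.697%). RUVBL2 held TFRC, FTH1, FTL and HJV in both (11.2%), 6 in HepG2 only (27.9%) and 0 in Huh7 only (1.42%).

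**Figure D4:**
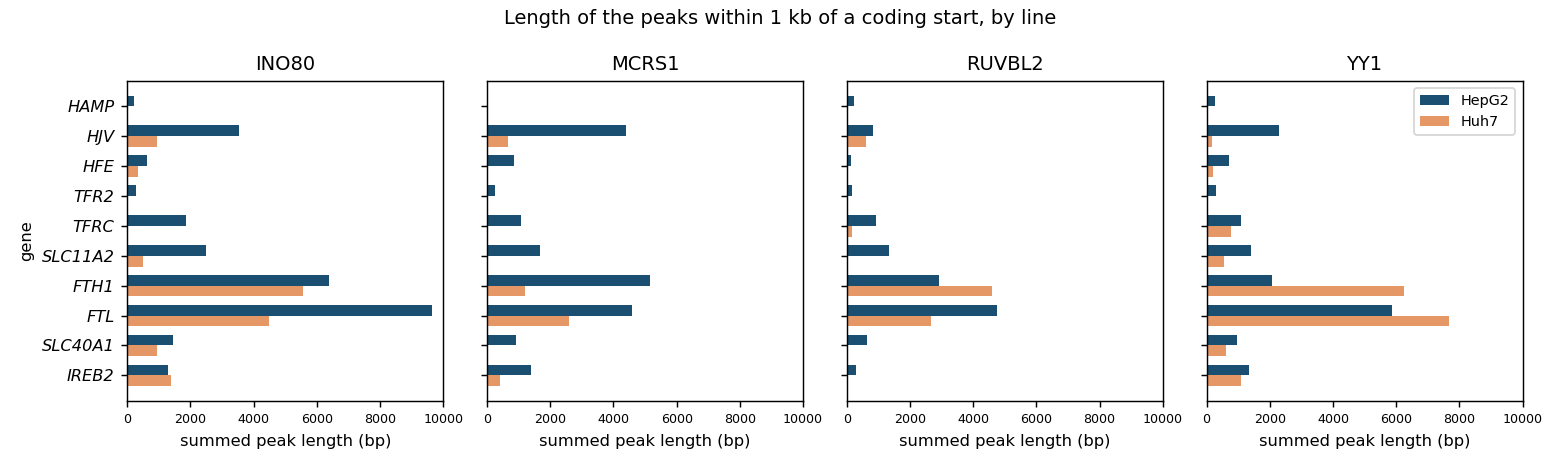
Summed length of peaks within 1 kb of a coding start (horizontal axis, bp) for each gene in HepG2 (dark bars) and Huh7 (light bars), 1 panel per factor mapped in both lines. Most dark bars are longer, with the exceptions of FTH1 for RUVBL2 and YY1, FTL for YY1 and IREB2 for INO80.

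The shorter Huh7 lists go with these states. When each list was reduced to its 3322 widest peaks, the length of the shortest list, INO80 held 5 of the 10 genes in HepG2 (15.6% of all coding genes) and 3 in Huh7 (15.3%), MCRS1 4 (15.3%) and 4 (13.5%), RUVBL2 4 (14.2%) and 4 (12.7%), and YY1 4 (16.2%) and 3 (14.7%). FTH1 and FTL held a peak in all 9 reduced lists, and HAMP, TFR2, HFE and SLC40A1 in none. How much of the difference between the lines comes from the length of the lists was not tested further. The YY1 lists also come from different sources, ENCODE reads in HepG2 and the submitters' own in Huh7.

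Shared occupancy followed the same order of genes. INO80, MCRS1, RUVBL2 and YY1 all held 9 of the 10 genes in HepG2, all but HAMP, where 38.4% of coding genes held the 4 factors. In Huh7 they all held FTH1, FTL and HJV, where 9.07% of coding genes did. All 5 factors mapped in HepG2 were at the same 3 genes, where 14.4% of coding genes held them. Of 77 peaks within 1 kb of a start of the 10 genes, 43 covered the canonical start.

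Across the gene bodies, from first to last annotated base, INO80 held 10 genes in HepG2 (65.9% of all coding genes), MCRS1 9 (61.3%), RUVBL1 3 (16.8%), RUVBL2 9 (39.7%) and YY1 9 (71.4%). In Huh7 INO80 held 7 (48.1%), MCRS1 4 (20.5%), RUVBL2 4 (12.7%) and YY1 8 (56.0%). Over the span of the canonical transcript alone, INO80 in HepG2 held 7 (63.2%), without HAMP, TFR2 and HJV. MCRS1 then held 7 (58.7%), RUVBL1 2 (13.6%), RUVBL2 8 (36.2%) and YY1 9 (68.7%) in HepG2. In Huh7 that span gave 6 for INO80 (43.4%), 2 for MCRS1 (17.0%), 3 for RUVBL2 (10.7%) and 7 for YY1 (52.5%). HAMP has no RUVBL2 or YY1 peak in its body because those peaks lie before its first base. Peaks inside a body and away from every start numbered 11, of which 6 were YY1 peaks in HepG2. They lay in TFRC, FTH1, HJV and TFR2, where the YY1 peak had 147 bp.

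Few of the letters searched were shared by the promoters. GCCATNTT, the letters of YY1, occurs in none of the 10 promoters of 250 bases (3.5% of all coding promoters) and about none of the 13 HepG2 YY1 peak centres at these genes (10.8% of all HepG2 YY1 peaks). It occurs about 1 of 5 RUVBL1 centres in HepG2 (11.0% of that list) and 1 of 6 MCRS1 centres in Huh7 (12.3%), both at FTH1, and about none of the centres of the other lists at these genes. ACGTG, the hypoxia response letters, which lie inside CACGTG, occurs before TFRC, TFR2, FTL and HFE (20.4%). GGCGCC occurs before HAMP and TFRC (22.2%), TTCNNNGAA before HAMP and HJV (5.61%), TGACNNNGC before HJV (11.3%) and CACGTG before none (7.85%). In 500 bases ACGTG was before 7 of the 10 (34.1%) and GCCATNTT still before none (7.26%). The absence of these letters in a window says nothing about the factor.

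The 51 other iron genes, from a list that leaves out the 10, were held by INO80 at 45 in HepG2 and 36 in Huh7, by MCRS1 at 46 and 18, by RUVBL2 at 26 and 10, by YY1 at 46 and 40, and by RUVBL1 at 11 in HepG2. The shares of INO80 and YY1, 88.2% and 90.2% in HepG2, are above those of all coding genes given above, as for the 10 genes. For RUVBL2 in HepG2 the share was 51.0%, where all 10 iron handling genes held it. Neither difference was tested.

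**Figure D5:**
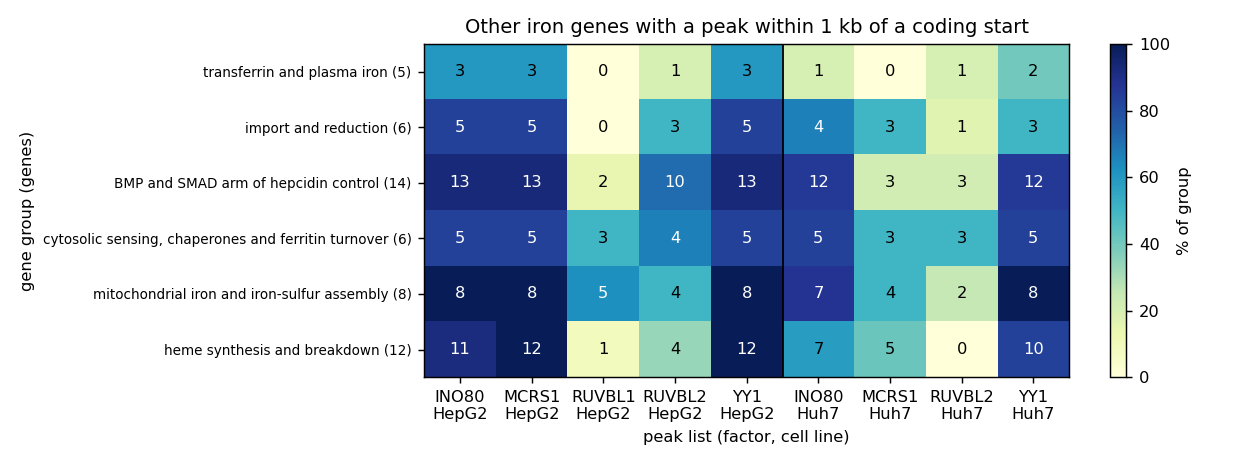
Number of genes with a peak within 1 kb of a coding start (printed, with colour as percent of the group) for 6 groups of other iron genes (rows, group size in brackets) in each list (columns, HepG2 left of the line). All 8 mitochondrial genes hold INO80, MCRS1 and YY1 in HepG2, where 63.7%, 58.1% and 62.6% of all coding genes do. RUVBL2 in Huh7 is at 0 of 12 heme genes and at 12.7% of all coding genes.

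Of the 8 genes of mitochondrial iron and iron-sulfur assembly INO80 held 8 in HepG2 (63.7% of all coding genes). In Huh7 it held 7 (47.7%), all but GLRX5. MCRS1 held 8 in HepG2 (58.1%) and 4 in Huh7 (21.8%). Of the 14 genes of the BMP and SMAD arm, which signals to HAMP, INO80 held 13 in HepG2, all but TMPRSS6, a protease that cleaves hemojuvelin, and 12 in Huh7. HAMP, the output of that arm, held peaks in fewer lists than most of the genes before it. ID1, a direct target of SMAD signalling, held all 9 lists, with INO80 peaks of 8444 bp in HepG2 and 4422 bp in Huh7. Of 12 heme genes INO80 held 11 in HepG2, all but ALAD, and 7 in Huh7, where HMOX1, the heme oxygenase gene, was among those without.

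Of the 5 transferrin and plasma iron genes INO80 held TF, MELTF and CP in HepG2 (63.7% of all coding genes). In Huh7 it held TF alone (47.7%). Each was the lowest INO80 share of the 6 groups in its line. The HepG2 share is near that of all coding genes, and 5 genes give a coarse share. TF, the gene of plasma transferrin, had an INO80 peak of 4877 bp in HepG2 and 877 bp in Huh7. Of the 6 genes for import and reduction INO80 held 5 in HepG2 and 4 in Huh7. SLC39A14, a liver importer of free iron, had 5644 bp of INO80 in HepG2 and 278 bp in Huh7, while its YY1 peak had 2550 and 3875 bp. Of the 6 genes of cytosolic sensing and ferritin turnover INO80 held 5 in each line, all but FTMT. PCBP1 and PCBP2, the chaperones that deliver iron to ferritin, held all 9 lists, as did FTH1 and FTL. LTF, HEPH and FTMT had no peak in any list.

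Some of the other iron genes had the same pattern over the 9 lists as a gene of the 10. ID1, PCBP1, PCBP2, SLC25A28 and NFS1 shared the pattern of FTH1, FTL and HJV, which 1041 coding genes have. ACVR1, SMAD1, NEO1, FECH and FLVCR1 shared that of SLC40A1, HFE and SLC11A2, which 1608 have. STEAP2, ACVR2A, SMAD5 and UROD shared that of IREB2, which 737 have. The patterns of HAMP, TFRC and TFR2, at 5, 68 and 335 coding genes, were shared by none of the 51. The widest peaks among the 51 were at ID1 and PCBP1 in most lists: 1 of this pair was widest in all 9. At PCBP1 they measured 4744 bp for INO80 in HepG2 and 4688 in Huh7. The 3 widest per list also took in SLC39A14, NFS1, TF, ISCU, BMPR2, SMAD6, SLC25A28 and PCBP2.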

How the data were processed

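Peak positions of 9 lists were analysed, 1 per factor and line. Per the submitters' processing notes, Bowtie2, SAMtools, deepTools, MACS2 and bedtools were used with builds hg19 and dm3, with roles and versions not given in the sources used here. The authors deposited these lists already filtered, with start and end only and no score, enrichment or p-value. Whether libraries were pooled for peak calling was not stated in the sources used, so depth and precision are unknown. The YY1 list of HepG2 came from ENCODE reads, per the labels of the series. Libraries of a group are not stated to be separate cultures.

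Gene starts were those of GENCODE release 44 mapped to GRCh37, whose chromosome lengths no peak exceeds. Genes on the mitochondrial chromosome and repeated symbols were left out, which gave 19785 coding genes. A peak counted when at least 1 base lay within 1 kb of any basic coding start, or inside the gene body. Python 3.11.15, pandas 2.3.3 and numpy 2.4.6 were used, and matplotlib 3.10.9 for plots. Counting was tested on simulated peaks. RefSeq served for names of HJV neighbours only.

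The 10 genes and the gene lists were chosen with earlier results of these data known. Other iron genes are named when among the 3 widest in a list, without a peak in any list, or alike in pattern to 1 of the 10 genes. GLRX5, TMPRSS6, ALAD, HMOX1, MELTF and CP were named after their values were seen. Chosen likewise were the B box search and its shortened letters, the counts at canonical starts and of 50% gene coverage, the shared stretches, CpG ratios, peak-centre windows and printed stretches, which keep clear of UTR exons of these genes. Alternatives changed the window, the starts, the peaks used and their extent. Input, H3K27ac and fly-tag data were not used. The sequence of 1 stretch is not reported here.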

Additional observations from a re-analysis of the deposited data

How the results depend on the processing

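Of the 90 combinations of 10 genes and 9 lists, 0 gained a peak under any alternative to the 1 kb rule. With starts within 5 kb, or the starts of all transcripts, 0 changed. Starts within 500 bp lost 1, the YY1 peak of HJV in Huh7. Canonical starts alone lost 11, which are HJV in all 9 lists and HAMP for RUVBL2 and YY1 in HepG2. Peaks set to 200 bp about their centre lost 5, the wider 50% of each list lost 13 and the 3322 widest peaks of each list lost 31; each follows from the shorter or fewer peaks used.

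With the 3322 widest peaks, the 10 genes gave 5 for INO80 (15.6% of all coding genes), 4 for MCRS1 (15.3%), 4 for RUVBL2 (14.2%) and 4 for YY1 (16.2%) in HepG2, and 3 for INO80 (15.3%) and 3 for YY1 (14.7%) in Huh7. The 51 other iron genes gave 18, 17, 15 and 16 in HepG2, and 13 for INO80, 11 for MCRS1 (13.5%) and 15 for YY1 in Huh7. Gene bodies gave 4 (17.0%), 3 (17.0%), 4 (15.4%) and 3 (17.9%) in HepG2, and 3 for INO80 (16.4%) and 3 for YY1 (16.6%) in Huh7. With the wider 50% of each list, RUVBL2 in HepG2 gave 6 of the 10 genes (25.8%) and 5 gene bodies (26.8%), and the other iron genes gave 6 for RUVBL1 in HepG2 (9.6%), 11 for MCRS1 in Huh7 (12.4%) and 6 for RUVBL2 in Huh7 (6.79%). Peaks of 200 bp gave 2 for RUVBL2 in Huh7 (12.4%), TFRC and HJV. The span of the canonical transcript gave 2 gene bodies for MCRS1 in Huh7 (17.0%). The remaining counts of genes with a peak stayed within 1.5 times their value. With 500 bases before the start in place of 250, GGCGCC was before 4 of the 10 genes in place of 2 (30.0% of all coding promoters). ACGTG was before 7 in place of 4 (34.1%), and CACGTG before 1, HAMP, in place of 0 (12.3%).

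No paired analysis was possible because each factor has 1 peak list per line and replicate numbers have no peaks of their own. No replicate was left out, since the lists do not separate replicates. The lists hold no depth, so an absent peak sets no upper limit on occupancy.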
